A study of Mus musculus with 16 samples.

Results

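The replication-dependent histone genes were taken as every gene whose symbol begins with Hist1h, Hist2h, Hist3h or Hist4h in the table of histone marks. This gave 70 of 43984 genes. The methylation table lists 55471 genes under newer symbols, where only 9 of the 70 keep a name of this form. All 70 were therefore placed in it by position. 61 of them had the same Ensembl identifier in both tables. The series holds 16 libraries from 4 mouse induced pluripotent stem cell (iPSC) lines. PTC11 and PTC12 came from proximal tubule cells (PTC) of the kidney, and TTF1 and TTF4 came from tail tip fibroblasts (TTF). According to the methods all lines derived from a quadruple transgenic mouse, in which doxycycline switches on the reprogramming factors once Cre recombinase has removed a loxP-flanked neo cassette. In PTC the Cre was driven by Slc34a1 and acted once the mice had been fed tamoxifen, whereas TTF received Cre from an episomal plasmid. Kidneys and tail tips were both collected from the tamoxifen-fed mice. The iPSCs were grown on a feeder layer of mouse embryonic fibroblasts and no longer depended on doxycycline, and each line is 1 clone. In the series each line had 1 library for H3K4me3, 1 for H3K36me3 and 1 for CpG methylation, so the line was the replicate and each origin had 2. The methods state that ChIP was done in duplicate on each line, but the series gives 1 value per gene and line for H3K4me3 and H3K36me3. The methods speak of independent animal replicates for methylation and of cells taken from littermates, while the labels do not tie a line to an animal. The p-values cover no variation beyond that between these lines. The test used, limma, draws the variance of a gene toward that of genes at a similar level. Its standard errors can therefore differ from the spread of the gene's own lines. Both PTC libraries of H3K27me3 carry the name PTC11. None of the 70 genes had an H3K27me3 value in any of the 4 libraries of that mark, in which between 11 and 144 genes had one.

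Replication-dependent histone genes encode the core histones H2A, H2B, H3 and H4 and the linker histone H1 that package newly copied DNA. They are transcribed in bursts during S phase, lie in clusters, mostly lack introns, and give mRNAs that end in a conserved stem-loop in place of a poly(A) tail. The stem-loop is bound by the stem-loop binding protein SLBP, and the coactivator NPAT drives transcription at the clusters. Pluripotent stem cells divide fast and spend much of their cycle in S phase. Of the marks measured here, H3K4me3 lies at the start of active genes, H3K36me3 over bodies of genes that RNA polymerase is elongating through, and CpG methylation at a promoter goes with silence.

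Hist1 on chromosome 13 held 56 of the genes and Hist2 on chromosome 3 held 10. Hist3 on chromosome 11 held 3 and Hist4 on chromosome 6 held 1. By type there were 6 H1, 20 H2A, 19 H2B, 12 H3 and 13 H4 genes. On mm10 the Hist1 genes lay in a block of 24 genes at chr13:21715763-22043676 and a block of 31 genes at chr13:23531044-23934851. The remaining gene, Hist1h2al at chr13:51202688-51203065, stood alone. The Hist2 genes filled chr3:96219865-96279001. GENCODE calls 67 of the 70 protein-coding and 3 pseudogenes, which are Hist3h2bb-ps, Hist1h2aj and Hist1h2al. The genes were short, with a median length of 532.5 bp, and 5 had a transcript with more than 1 exon. Hist1h2be, an H2B gene, was the longest at 37383 bp. Its listed start lay 35168 bp from its nearest start codon, so that its H3K4me3 value belongs to that distant start.

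The stem-loop was looked for in the mm10 sequence within 250 bases after the end of the coding feature. It was taken as a perfect inverted repeat of 6 bases starting with GG, around a loop of 4 bases starting with TT. Such a site was found in 63 of the 67 protein-coding genes, starting 24 to 61 bases after the coding end. The sites of 7 genes follow, 5′ to 3′ and in capitals over the stem-loop, to show how the classes differ in it.
Hist1h1b, chr13:21779828-21779857, minus strand: ccaaaGGCTCTTTTCAGAGCCacctagaga
Hist1h2ae, chr13:23570659-23570688, minus strand: acaaaGGCTCTTTTCAGAGCCattcactta
Hist1h2bg, chr13:23571838-23571867, plus strand: ccaaaGGCTCTTTTCAGAGCCacccatact
Hist1h3d, chr13:23576239-23576268, plus strand: ccaaaGGCTCTTTTCAGAGCCacccccgtt
Hist4h4, chr6:136803989-136804018, minus strand: acaaaGGCCCTTTTCAGGGCCcacaaagca
Hist1h4j, chr13:21735432-21735461, plus strand: ctaaaGGTCCTTTTCAGGACCaccacatct
Hist1h2ba, chr13:23933721-23933750, minus strand: ccaaaGGCTCTTTTAAGAGCCacccacctc

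All 51 sites of H1, H2A, H2B and H3 genes had the stem GGCTCT. Of the 12 H4 sites, 10 had GGCCCT and 2, in Hist1h4j and Hist1h4b, had GGTCCT. With its first 2 bases fixed as TT by the search, the loop was TTTC in 51 sites, TTTA in 9 and TTTT in 3. Of the testis-type genes Hist1h1t and Hist1h2ba had TTTA and Hist1h2aa had TTTC. The 7 genes without a match included the 3 pseudogenes, which have no coding feature and were not searched.

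RefSeq promoters on GRCm38, the same build as mm10, ran from 250 bases before to 50 bases after the start and matched 62 of the 70 genes. They were searched on both strands for TATAAA, for CCAAT and for ATTTGCAT, none of which contains another. CCAAT is bound by NF-Y and ATTTGCAT by octamer factors such as OCT1 and the pluripotency factor OCT4. The promoters of 6 genes discussed in the results follow, with matches on either strand in capitals.
Hist1h1b, chr13:21780576-21780875, minus strand: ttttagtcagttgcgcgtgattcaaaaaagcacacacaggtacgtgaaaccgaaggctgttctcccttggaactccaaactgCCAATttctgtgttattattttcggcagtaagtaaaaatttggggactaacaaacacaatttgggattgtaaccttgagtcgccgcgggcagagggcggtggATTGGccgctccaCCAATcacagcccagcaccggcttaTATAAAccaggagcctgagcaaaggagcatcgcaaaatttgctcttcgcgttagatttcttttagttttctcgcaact
Hist1h2bg, chr13:23571150-23571449, plus strand: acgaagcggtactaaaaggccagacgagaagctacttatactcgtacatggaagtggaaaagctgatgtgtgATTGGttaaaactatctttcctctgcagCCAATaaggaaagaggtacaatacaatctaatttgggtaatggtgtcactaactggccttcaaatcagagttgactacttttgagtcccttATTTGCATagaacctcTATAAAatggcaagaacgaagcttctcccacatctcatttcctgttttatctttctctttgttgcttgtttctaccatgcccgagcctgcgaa
Hist1h3d, chr13:23575513-23575812, plus strand: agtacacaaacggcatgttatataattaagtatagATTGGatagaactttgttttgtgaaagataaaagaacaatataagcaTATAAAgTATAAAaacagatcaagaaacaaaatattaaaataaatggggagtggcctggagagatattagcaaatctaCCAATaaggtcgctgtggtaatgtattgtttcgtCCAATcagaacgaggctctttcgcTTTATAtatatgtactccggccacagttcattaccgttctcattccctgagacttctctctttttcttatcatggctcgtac
Hist4h4, chr6:136804382-136804681, minus strand: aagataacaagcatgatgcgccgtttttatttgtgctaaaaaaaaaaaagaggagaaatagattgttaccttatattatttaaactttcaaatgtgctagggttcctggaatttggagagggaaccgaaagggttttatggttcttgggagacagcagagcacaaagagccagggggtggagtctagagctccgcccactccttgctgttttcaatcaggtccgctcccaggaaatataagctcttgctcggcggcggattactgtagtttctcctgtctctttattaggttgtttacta
Hist1h4m, chr13:21811496-21811795, plus strand: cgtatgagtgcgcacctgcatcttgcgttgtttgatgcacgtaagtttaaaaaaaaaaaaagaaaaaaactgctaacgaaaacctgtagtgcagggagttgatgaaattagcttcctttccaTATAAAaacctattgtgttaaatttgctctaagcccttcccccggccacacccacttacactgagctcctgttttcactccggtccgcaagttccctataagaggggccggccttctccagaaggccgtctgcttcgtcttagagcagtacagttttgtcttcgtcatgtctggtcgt
Hist1h2ba, chr13:23934107-23934406, minus strand: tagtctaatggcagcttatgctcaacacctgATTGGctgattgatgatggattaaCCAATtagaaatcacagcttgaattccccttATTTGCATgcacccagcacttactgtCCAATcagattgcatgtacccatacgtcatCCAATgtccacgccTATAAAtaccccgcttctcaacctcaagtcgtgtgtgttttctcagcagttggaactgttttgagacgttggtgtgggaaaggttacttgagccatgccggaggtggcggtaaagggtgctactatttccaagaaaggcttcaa

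CCAAT was present in every matched H1, H2A, H2B and H3 promoter (6, 18, 16 and 10 genes), but in only 3 of 12 H4 promoters, against 37.4% of all 32851 promoters. ATTTGCAT was found in 7 H2A and 6 H2B promoters and in no H1, H3 or H4 promoter. These were 13 of the 62 matched members, and 1.74% of all promoters held it. TATAAA was found in 56.5% of the members and 13.6% of all. Promoters of neighbouring genes on opposite strands can overlap, so that a site can count for both genes. Hist1h2ah and Hist1h2bk, for example, hold the same ATTTGCAT site. The promoter of Hist4h4, the gene with the highest mean H3K4me3 of the 65 with 4 values, held none of these motifs.

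H3K4me3 was measured at nearly every histone gene. The values are RPKM, the reads in a peak scaled by its length and by the depth of the library, less the same quantity in the input, averaged over the peaks near the transcription start site (TSS). A gene has a value only where a peak was called. All 4 lines gave a value for 65 of the 70 genes (92.9%), against 31.2% of all genes, 25.8% of genes no longer than Hist1h2be and 5.83% of genes of at most 1000 bp. Of the 52 histone genes of that length, 90.4% had all 4. With a value of 0 taken as no value, 61 of the 70 genes had all 4. PTC12 and TTF1 gave a value for all 70, and PTC11 and TTF4 for 66 each.

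Where it was present, the median H3K4me3 of the histone genes lay below that of all marked genes in every line. Over the 65 genes the median was 1.59 RPKM (PTC11), 2.50 (PTC12), 2.74 (TTF1) and 1.58 (TTF4). Over all 13709 genes with a value in each line it was 3.73, 5.31, 5.72 and 3.72. The histone genes thus stood at 42.5% to 47.9% of the median of all genes in each line. PTC12 and TTF1 both lay above PTC11 and TTF4 at 46 of the 65 genes (70.8%) and at 81.4% of all genes. This split crosses the origins. In ChIP from bulk cells, a lower level per cell and fewer cells with the mark cannot be told apart.

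**Figure D1:**
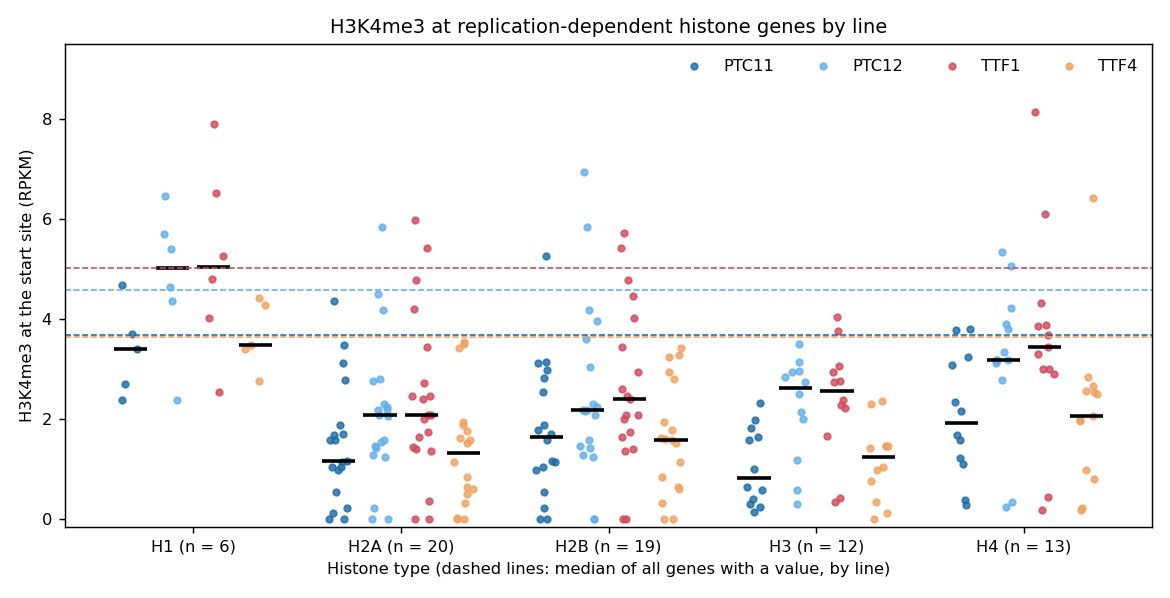
H3K4me3 RPKM at each histone gene by histone type, with 1 point per gene and line, black bars at the median and dashed lines at the median of all genes with a value in that line. H1 genes sit near the dashed lines, and most genes of the other types sit below them.

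Among the histone types the linker histone genes had the highest median H3K4me3. The median of the H1 genes with a value in all 4 lines was 3.39 RPKM (PTC11), 5.39 (PTC12), 5.27 (TTF1) and 3.49 (TTF4). For H4 these medians were 1.92, 3.19, 3.37 and 2.02 in the same order of lines. For H2B they were 1.65, 2.18, 2.43 and 1.59. H2A had 1.37, 2.13, 2.09 and 1.33, and H3 had 0.826, 2.62, 2.56 and 1.24. H1 came first and H4 second in every line, while the order of H2A, H2B and H3 changed from line to line. H3 was the lowest in PTC11 and TTF4 and above H2A and H2B in PTC12 and TTF1. The types are given as a description, since genes of a cluster share peaks. Each type but H1 also held genes at or near 0 from the repeated or copied sequence described below. The part of such sequence in the order of types was not tested.

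The replication-dependent linker histone gene with the highest mean was Hist1h1b, which encodes H1.5. It had 4.69 RPKM (PTC11), 5.39 (PTC12), 7.89 (TTF1) and 4.43 (TTF4). Hist1h1d, which encodes H1.3, was the lowest of the H1 genes measured in all lines, with 2.71, 4.37, 4.81 and 2.76 RPKM. At both, TTF1 was the highest line and PTC12 the second.

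Hist4h4, the single gene of its cluster, encodes the same H4 protein as the other clusters. It had 3.78 RPKM (PTC11), 5.33 (PTC12), 8.13 (TTF1) and 6.43 (TTF4), with a mean of 5.92. Both TTF lines were above both PTC lines here. On the log2(RPKM + 1) scale the difference was 0.58 with a standard error of 0.55 (limma, adjusted p = 1), so it did not pass the test.

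In Hist3 the H2A gene Hist3h2a had 4.36 RPKM (PTC11), 4.18 (PTC12), 5.43 (TTF1) and 3.42 (TTF4). The adjacent pseudogene Hist3h2bb-ps had the same values in all lines but PTC11, where it had 5.27, and was the highest of the H2B class. Hist3h2ba had 1.78, 3.97, 4.02 and 3.28 RPKM. The gene Trim17 next to this cluster is listed with exactly the values of Hist3h2a.

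In Hist2 the genes fell into a high and a low set. Hist2h2ab, the highest H2A gene, had 3.49 RPKM (PTC11), 4.50 (PTC12), 5.98 (TTF1) and 3.55 (TTF4). Hist2h2ac had 3.13, 5.83, 4.79 and 3.51 RPKM, and its neighbour Hist2h2be had 3.13, 5.83, 4.79 and 2.80. Hist2h4 had 3.81, 3.81, 3.86 and 2.66 RPKM, and the H2B gene Hist2h2bb had 2.98, 3.59, 4.46 and 3.25. The median over the 10 Hist2 genes was 2.88 RPKM (PTC11), 3.28 (PTC12), 4.03 (TTF1) and 2.51 (TTF4). The low set was made of genes from a copied stretch, whose windows share 39.4% of their 30-mers with another member. Hist2h3c2 had 0.398, 0.306, 0.425 and 0.0156 RPKM and was the lowest H3 gene. Hist2h2aa2 had 0.125, 0.219, 0.369 and 0.0312, and Hist2h3c1 had 0.583, 0.590, 0.340 and 0.346. Hist2h2aa1, from the same stretch, stood higher, with 2.78, 2.76, 4.20 and 1.89. Hist2h3b, the other H3 gene of Hist2, had 1.98, 2.96, 2.74 and 2.36.

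In Hist1 the H3 gene with the highest mean was Hist1h3c, with 2.32 RPKM (PTC11), 3.51 (PTC12), 3.76 (TTF1) and 2.31 (TTF4). The lowest H4 gene was Hist1h4m, with 0.379, 0.246, 0.195 and 0.180. Its neighbour Hist1h4n had 0.277, 0.337, 0.436 and 0.226. On either side of this pair Hist1h2bq, Hist1h2ao, Hist1h2ap and Hist1h2br were listed at 0 in every line. These 6 genes lie next to each other in the first Hist1 block.

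The lowest values coincided with sequence that is not unique in the genome. In the window from 2 kb before to 3 kb after the TSS, the share of 30-mers that occur once in GRCm38 was 0.603% for Hist1h2bq, 2.15% for Hist1h2ao, 3.26% for Hist1h4m, 4.89% for Hist1h2ap, 0.422% for Hist1h2br and 32.0% for Hist1h4n. Hist1h2bq and Hist1h2br share 99.4% of their 30-mers. The mean H3K4me3 of these 6 genes over the lines ran from 0 to 0.319 RPKM. Another 7 genes, of which 6 belong to Hist2, had a share between 42.4% and 63.5%, with means from 0.186 to 3.57 RPKM. The other 57 genes had shares from 67.1% to 98.3%, and the 52 of them with 4 values had means from 0.940 to 5.92 RPKM. Short reads from repeated sequence cannot be assigned to 1 copy, and the part of this in the low values was not tested.

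**Figure D2:**
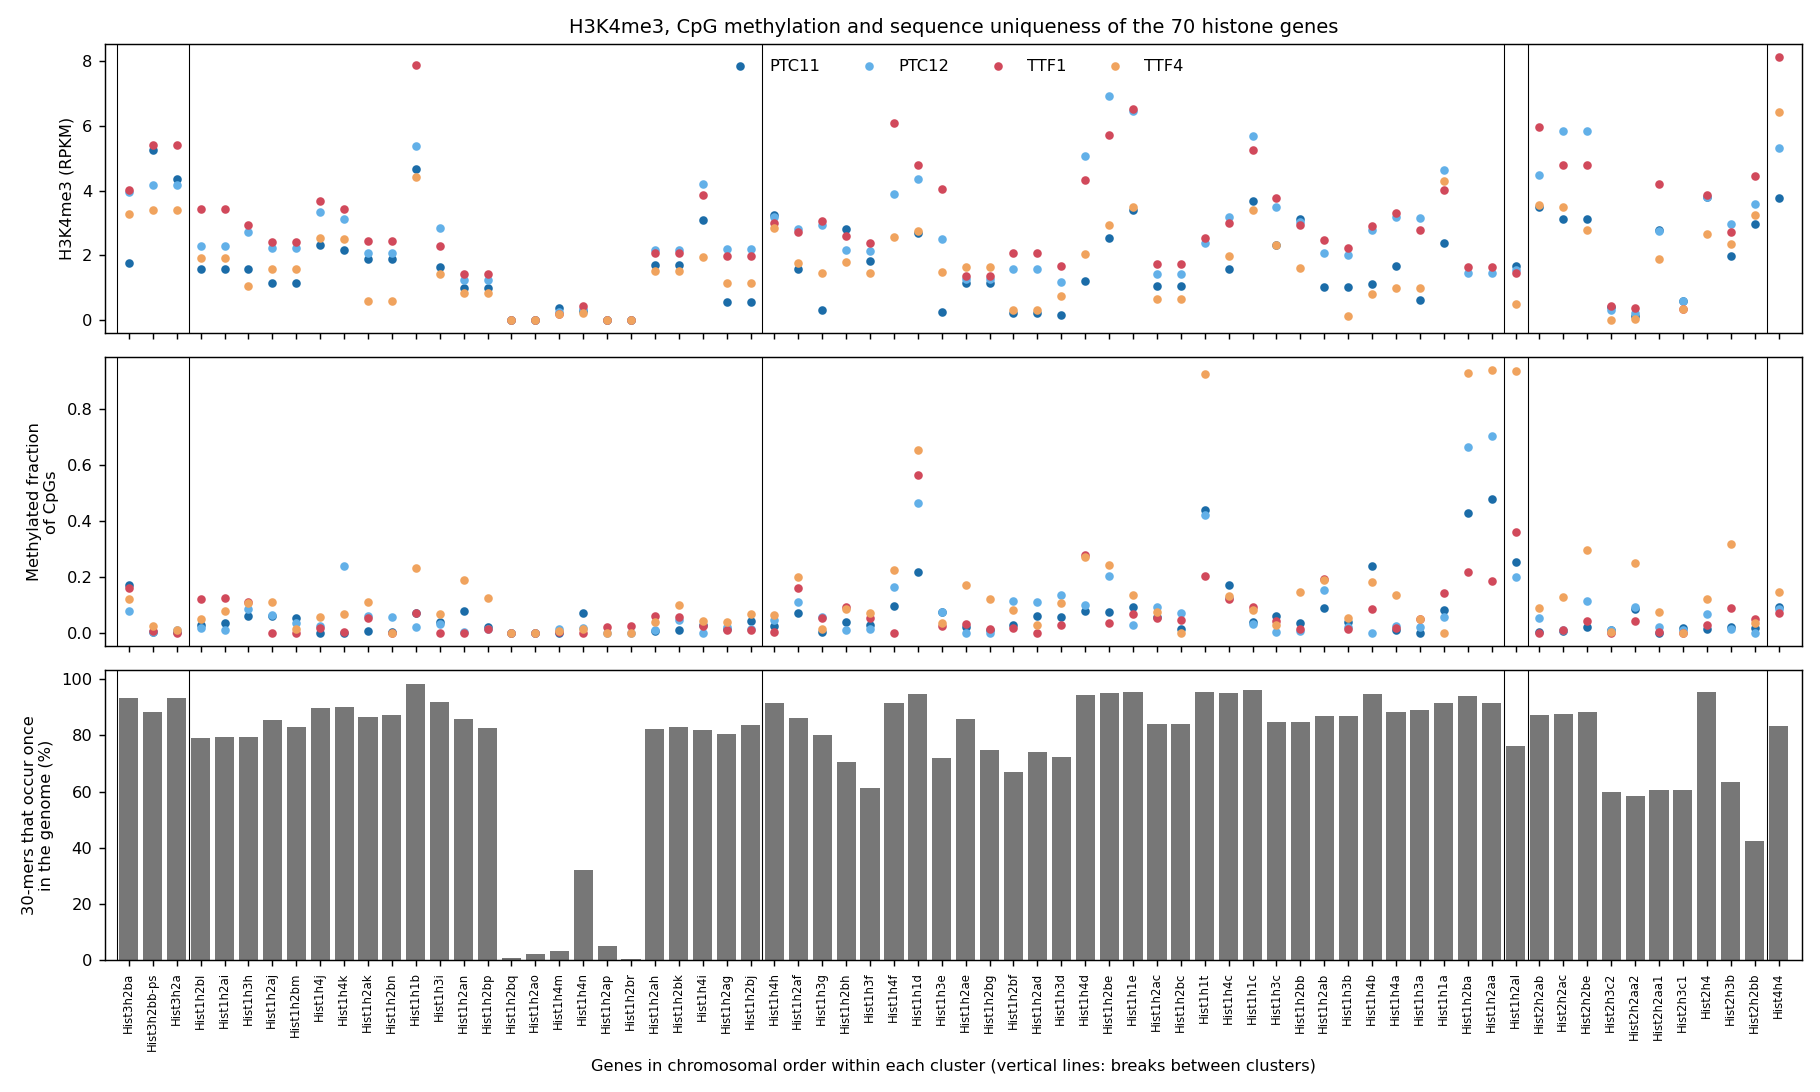
The 70 genes in chromosomal order within each cluster, with H3K4me3 in RPKM by line in the top row, the methylated fraction of CpGs by line in the middle row and the percentage of 30-mers near the start that occur once in the genome in the bottom row. The run of 6 genes with under 35% unique 30-mers has H3K4me3 at or near 0, and their methylated fractions are at most 0.074.

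Neighbouring genes often carried one and the same value. An H2A and an H2B gene stood head to head in 14 pairs, and in all but 4 pairs both genes had identical H3K4me3 in every line. These were Hist1h2bl with Hist1h2ai, Hist1h2aj with Hist1h2bm, Hist1h2ak with Hist1h2bn, Hist1h2an with Hist1h2bp, Hist1h2ah with Hist1h2bk, Hist1h2ag with Hist1h2bj, Hist1h2ae with Hist1h2bg, Hist1h2bf with Hist1h2ad, Hist1h2ac with Hist1h2bc, and Hist1h2ba with Hist1h2aa. Of the exceptions, 2 pairs were listed at 0 for both genes. The 70 genes held 60 distinct sets of H3K4me3 values when genes at 0 were counted separately. A further 9 members shared all their H3K4me3 values with a gene that is no member, such as Hist1h2be with Gm11398 and Hist2h2ab with Bola1. For H3K36me3 there were 67 distinct sets, where a value missing from 1 gene of a pair counted as a difference. Further pairs, such as Hist1h2bl with Hist1h2ai and Hist1h2ae with Hist1h2bg, had identical H3K36me3 in PTC11 and PTC12. They differed only in whether TTF4 had a value. Methylation differed at every gene with a value above 0.

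Comparison of the origins asked whether chromatin at these genes kept a trace of the cell of origin. It was made with limma on log2(RPKM + 1) as TTF minus PTC, with adjustment over all 13709 genes that had 4 values. 7 of the 65 histone genes passed an adjusted p of 0.05 (10.8%), against 0.481% of all genes. TTF was higher at 2 of them, Hist1h3d and Hist1h3e, against 0.226% of all genes, and lower at 5, against 0.255%. Only 3 of the 7 had lines of the origins that did not overlap, against 0.109% of all genes that passed both. All 7 calls were lost, as were all calls over the genome, when genes with a mean under 1 RPKM were left out, under median scaling, under quantile normalization and without the variance trend. Of the 65 histone genes 10 had a mean under 1 RPKM (15.4%), against 1.26% of all genes, and 4 of the 7 were among these 10.

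Among the 3 without overlap, Hist2h3c1, an H3 gene, had 0.583 and 0.590 RPKM in PTC11 and PTC12 and 0.340 and 0.346 in TTF1 and TTF4. Its difference was -0.24 with a standard error of 0.05 (limma adjusted p = 8.22e-05). The gene Gm20633 inside the Hist2 span is listed with the same H3K4me3 values. Hist1h4m had 0.379 and 0.246 RPKM in the PTC lines against 0.195 and 0.180 in the TTF lines, a difference of -0.14 with a standard error of 0.03 (limma adjusted p = 0.00839). Both genes had a mean below 1 RPKM, and their windows are among those with repeated sequence described above. Hist1h2al, the lone H2A pseudogene, had 1.68 and 1.55 in the PTC lines and 1.45 and 0.512 in the TTF lines. Its difference was -0.44 with a standard error of 0.10 (limma adjusted p = 0.00649), and TTF4 was far below the other lines.

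At the other 4 called genes the lines of the origins overlapped. Their standard errors come from the moderated variance of limma, not from the lines of each gene alone. Hist1h3d had 0.147 RPKM (PTC11), 1.18 (PTC12), 1.67 (TTF1) and 0.759 (TTF4), a difference of 0.46 with a standard error of 0.07 (limma adjusted p = 2.81e-07). Hist1h3e had 0.251, 2.50, 4.05 and 1.47, a difference of 0.76 with a standard error of 0.15 (limma adjusted p = 8.71e-05). At both, PTC11 was far below the other 3 lines. Without PTC11 neither was called, and the calls fell to Hist1h3b and Hist2h3c1. Hist1h3b had 1.01 RPKM (PTC11), 2.00 (PTC12), 2.22 (TTF1) and 0.131 (TTF4), a difference of -0.37 with a standard error of 0.10 (limma adjusted p = 0.0413). Hist2h3c2, with the values given above, differed by -0.17 with a standard error of 0.04 (limma adjusted p = 0.000849). At these last 2 genes TTF4 was the lowest line. Hist2h3c1 was the only one called without each of the 4 lines in turn.

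**Figure D3:**
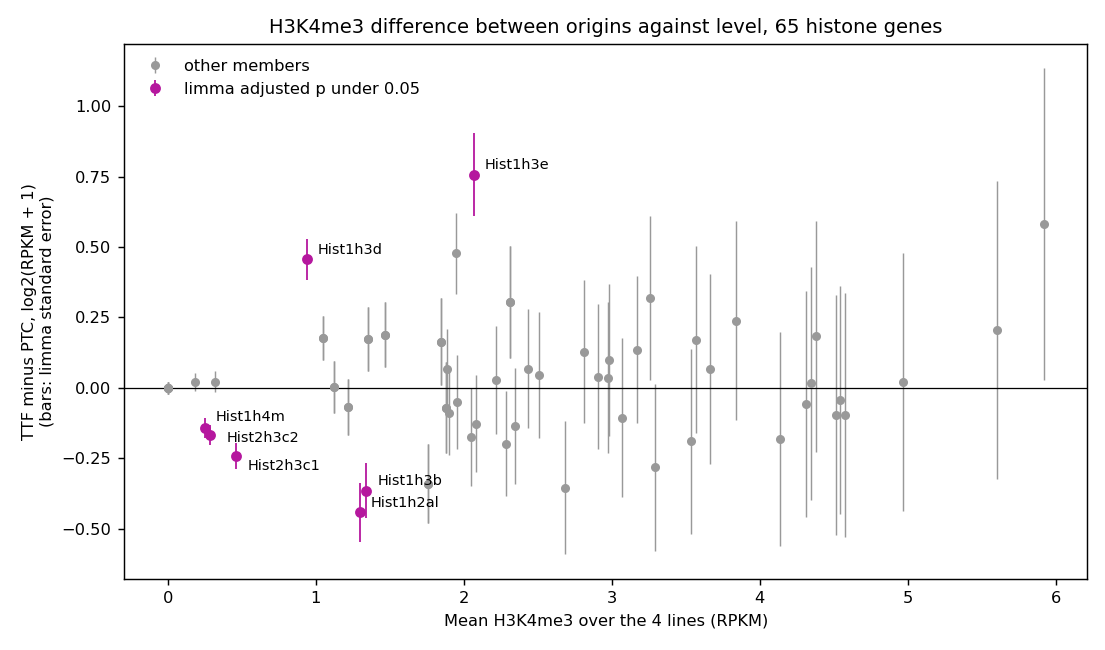
Difference in H3K4me3 between origins as TTF minus PTC on log2(RPKM + 1), with limma standard errors, against the mean RPKM over the 4 lines for the 65 histone genes with 4 values. The 7 genes with an adjusted p under 0.05 all lie at means of at most 2.07 RPKM.

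The lines of the 2 origins did not overlap at 8 of the 65 genes, against 8.21% of all genes. Besides Hist4h4 and the 3 called genes these were Hist1h2ae and Hist1h2bg, which share a value, Hist1h2bb and Hist1h4h. Hist1h2ae and Hist1h2bg had 1.14 RPKM (PTC11), 1.28 (PTC12), 1.37 (TTF1) and 1.63 (TTF4), a difference of 0.17 with a standard error of 0.11 (limma adjusted p = 1). Hist1h2bb had 3.14, 3.05, 2.94 and 1.60, and Hist1h4h had 3.25, 3.19, 3.00 and 2.84. Neither passed the test (limma adjusted p = 1 for both). Over the 65 genes the median difference was 0.02 on log2(RPKM + 1), and over all genes it was 0.04. With 1 line left out it ran from -0.21 (without TTF1) to 0.28 (without TTF4), and over all genes from -0.21 to 0.31, so its sign depends on the lines included.

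Of the 5 members without H3K4me3 in some line, 3 were testis-type genes. Hist1h1t encodes the testis linker histone H1t, and Hist1h2ba and Hist1h2aa encode the testis variants TH2B and TH2A. None of them had a peak in PTC11 or TTF4. Hist1h1t had 2.38 RPKM in PTC12 and 2.54 in TTF1, and the pair Hist1h2ba and Hist1h2aa shared 1.46 in PTC12 and 1.64 in TTF1. The same lines carried the higher H3K4me3 values over all genes, and PTC12 and TTF1 had a value at 45.4% and 44.2% of all genes, against 34.4% and 34.9% in PTC11 and TTF4. Hist1h4f had no value in PTC11 and 3.90, 6.10 and 2.57 RPKM in PTC12, TTF1 and TTF4. Hist1h2ab had none in TTF4 and 1.04, 2.07 and 2.47 in PTC11, PTC12 and TTF1. So each missing value fell in PTC11 or TTF4.

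H3K36me3 is given as the mean RPKM of the peaks over the gene body. A value was listed at 69 of the 70 genes in PTC11 and 66 in PTC12, at 42 in TTF4, and at 15 in TTF1. Some of these values were 0, and 4 genes had no value above 0 in any line. TTF1 had a value at 53.4% of all genes, yet at 21.4% of the histone genes and 14.5% of all genes of at most 1000 bp. Over the genes with a value the medians were 0.828 RPKM (PTC11), 1.56 (PTC12), 0.412 (TTF1) and 1.46 (TTF4), below the medians over all genes of 1.60, 3.88, 1.18 and 4.01. A value in all 4 lines was present at 9 histone genes (12.9%), against 38.7% of all genes and 2.94% of those of at most 1000 bp. With a value of 0 taken as no value, 7 histone genes had all 4. Repeated sequence also reaches the gene bodies over which this mark is averaged. At 39 of the 70 genes under 50% of the 30-mers of the body occur once in the genome, and the lowest share was 0%. The part of this in the low or missing H3K36me3 values was not tested.

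In TTF4 the share of genes with a value varied by type. H2A had one at 19 of 20 genes and H3 at 12 of 12, whereas H2B had one at 5 of 19, H4 at 3 of 13 and H1 at 3 of 6. These counts include values of 0 in TTF4 at Hist1h2ao, Hist1h2ap, Hist1h2ad, Hist1h2br, Hist1h1d and Hist2h3c1. In PTC11 and PTC12 all H2A, H2B and H3 genes had a value. The head-to-head pair Hist1h2ak and Hist1h2bn shared 0.729 RPKM in PTC11 and 1.82 in PTC12, but in TTF4 Hist1h2ak had 1.68 and Hist1h2bn none. Of the 5 H2B genes with a value in TTF4, Hist1h2bp, Hist1h2br, Hist1h2be and Hist1h2bc have transcripts of more than 1 exon, and the other is the testis gene Hist1h2ba. The fifth gene with such a transcript, Hist1h2bq, had no value in TTF4. What set this pattern in 1 library was not tested.

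**Figure D4:**
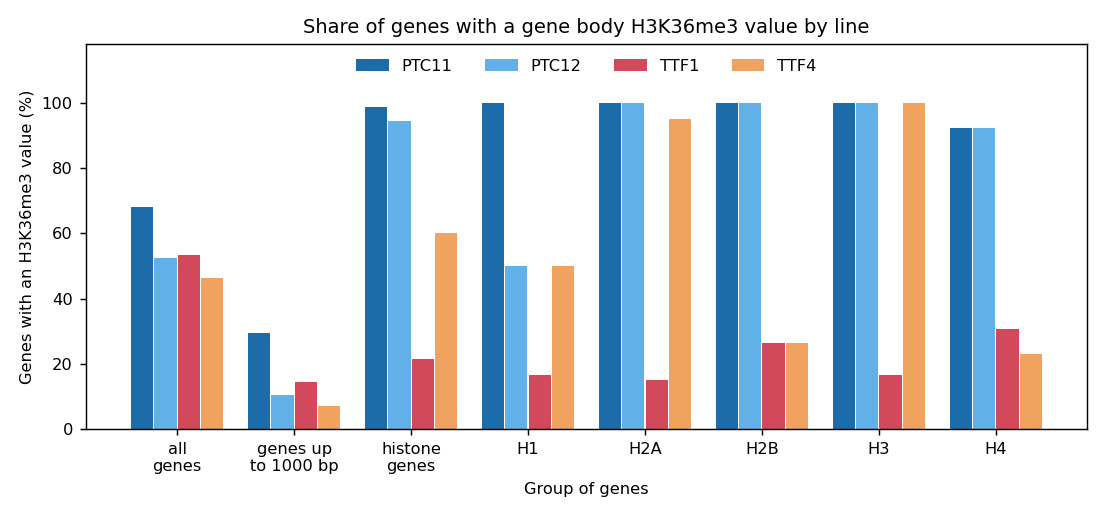
Percentage of genes with a gene body H3K36me3 value in each line, for all genes, genes of at most 1000 bp, the 70 histone genes and each histone type, with bars starting at 0. TTF1 bars are low for every histone type, and TTF4 bars are high for H2A and H3 and low for H2B and H4.

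Among the 9 genes with 4 values, Hist1h2be, the gene with the long transcript, had the highest mean, with 1.21 RPKM (PTC11), 3.71 (PTC12), 0.817 (TTF1) and 4.98 (TTF4). Hist1h2aa and Hist1h2ba shared 2.53, 3.64, 0.915 and 2.57. The H4 gene Hist1h4d had 0.427, 2.12, 0.593 and 3.47. At each of these genes PTC12 or TTF4 was the highest line, as at 49.6% and 48.4% of all genes. The H3 genes Hist1h3i and Hist1h3d had 0.378, 3.34, 0.0760 and 2.08 RPKM, and 0.463, 0.826, 0.401 and 1.56. Hist1h2al had 1.15, 2.59, 0.275 and 5.39. The lowest were Hist2h2aa2, with 0, 0.702, 0.112 and 0.491, and Hist1h2br, listed at 0 in every line. Of the 9, 0 passed the limma test and 0 had an unadjusted p under 0.05. Over all 17039 genes 0.112% passed, 0.0235% with TTF higher and 0.0880% with TTF lower, and 0.0939% passed without overlap between the origins. The lines of the origins overlapped at each of the 9 genes and did not at 3.50% of all genes. Their median difference was 0 on log2(RPKM + 1), against -0.14 over all genes. With 1 line left out it ran from -0.83 (without TTF4) to 0.37 (without PTC12).

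CpG methylation around the TSS was low at most histone genes. The values are the deposited fractions of methylated CpGs by nanopore sequencing, averaged over windows within 1 kb of the TSS. The median over the 68 genes with 4 values was 0.0365 (PTC11), 0.0346 (PTC12), 0.0353 (TTF1) and 0.0861 (TTF4). Over all 50657 genes it was 0.380, 0.535, 0.370 and 0.769. The share of histone genes with a fraction under 0.1 was 88.2% (PTC11), 77.1% (PTC12), 80.0% (TTF1) and 55.7% (TTF4), against 19.9%, 14.9%, 20.7% and 7.07% of all genes. TTF4, the most methylated line over the genome, was the highest line at 36 of the 68 genes (52.9%) and at 75.4% of all genes. The read coverage behind a fraction is not given in the table, and the spread between lines is the measure of error.

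By cluster, the median over the 10 Hist2 genes was 0.0167 (PTC11), 0.0194 (PTC12), 0.0221 (TTF1) and 0.106 (TTF4). For the Hist1 genes with 4 values it was 0.0401, 0.0362, 0.0408 and 0.0832. TTF4 had the highest median in both clusters. Hist2h3c2, the least methylated H3 gene, had 0.0120, 0.0133, 0 and 0.00397, and Hist1h4m, the least methylated H4 gene, had 0, 0.0152, 0.00507 and 0.00952. Hist1h2bq and Hist1h2ao were at 0 in every line. Both of these and Hist1h4m lie in the repeated sequence described above, and Hist2h3c2 lies in the copied stretch of Hist2. The part of this in their low fractions was not tested. Hist2h2aa2, which was also low in H3K4me3, had 0.0886, 0.0942, 0.0437 and 0.250. Hist1h2ap and Hist1h2br had no methylation value in PTC11.

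High methylation was found at 5 genes with a mean over 0.3. Hist1h1t had 0.442 (PTC11), 0.424 (PTC12), 0.205 (TTF1) and 0.926 (TTF4). Hist1h2ba had 0.430, 0.665, 0.220 and 0.928, and Hist1h2aa had 0.480, 0.706, 0.189 and 0.939. At these 3 testis genes TTF4 had the highest fraction, TTF1 the lowest, and both PTC lines lay between, so the origins overlapped. H3K4me3 at them was present in PTC12 and TTF1, that is in the line with the lowest methylation and in a PTC line with a fraction of 0.424 to 0.706. The H2A pseudogene Hist1h2al had 0.256, 0.202, 0.361 and 0.937. Hist1h1d had 0.218, 0.465, 0.566 and 0.654, but the methylation table places its start 1770 bp upstream of the start in the histone mark table, so its methylation window is centred on another position. Among the other genes with 4 values the highest mean was that of Hist1h4d, with 0.0794, 0.101, 0.279 and 0.271.

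**Figure D5:**
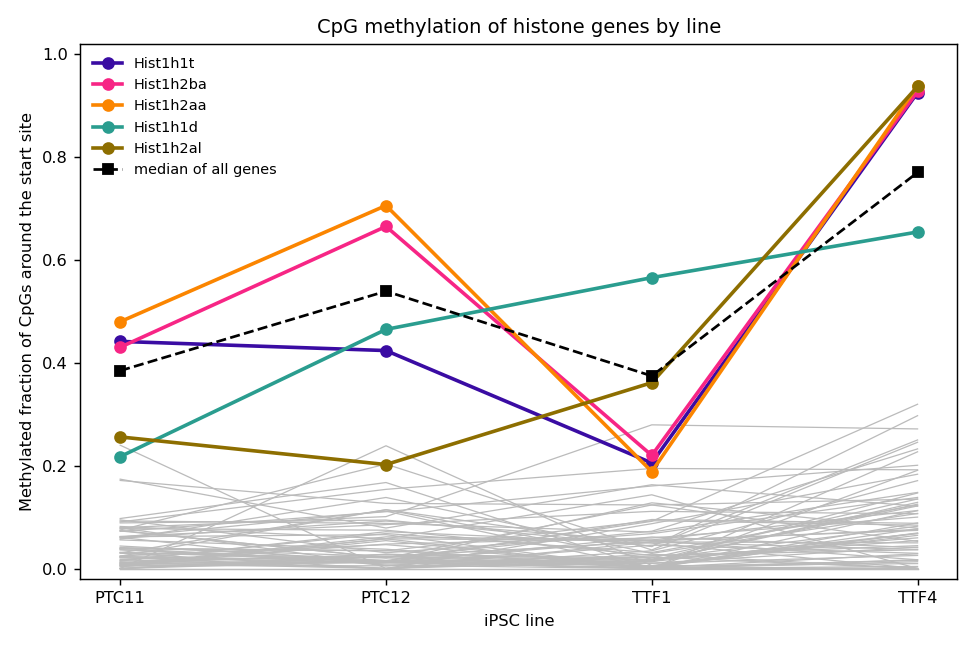
Methylated fraction of CpGs around the start site of each histone gene in the 4 lines, with grey lines for genes with a mean of at most 0.3 or without all 4 values, coloured lines for the 5 genes above it and a dashed line for the median of all genes. The testis genes Hist1h1t, Hist1h2ba and Hist1h2aa are lowest in TTF1 and above 0.9 in TTF4.

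The origins were compared on the fraction minus the mean of its line. Of the histone genes 0 passed the limma test, against 0.00395% of all 50657 genes, which divides into 0.00197% with TTF higher and 0.00197% with TTF lower. Hist1h2al alone had an unadjusted p under 0.05, with a difference of 0.33 and a standard error of 0.15 (limma adjusted p = 0.9999). Without TTF1 it was called, as 1 of 68 histone genes (1.47%) against 2.01% of all genes, with TTF4 then the only TTF line. The lines did not overlap between origins at 8 of the 68 genes (11.8%), against 27.8% of all genes. Without centring the relation turned, with 27 of the 68 (39.7%) against 23.9% of all genes. TTF was higher at Hist1h2al, Hist1h1d and Hist2h3b. Hist2h3b had 0.0233 (PTC11), 0.0153 (PTC12), 0.0917 (TTF1) and 0.319 (TTF4). TTF was lower, after centring, at Hist1h4k, Hist1h2ad, Hist1h3d, Hist1h4f and Hist1h2be. In the deposited fractions the origins overlapped at all of these but Hist1h2ad. Hist1h4k had 0 and 0.239 in the PTC lines and 0.00569 and 0.0682 in the TTF lines, and Hist1h2ad had 0.0609 and 0.112 against 0.00139 and 0.0286. The median difference over the members was -0.07, against -0.01 over all genes, but it was 0.02 without centring, 0.04 without TTF4 and -0.18 without TTF1, so its direction is not stable.

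Other genes of histone supply had higher median H3K4me3 in every line, given as a description. The listed replication-independent variants, such as H2afz and H3f3a, had values in all 4 lines at 10 of 17 genes, with medians of 3.66 RPKM (PTC11), 5.28 (PTC12), 5.44 (TTF1) and 3.40 (TTF4). The listed factors of histone gene transcription and 3′ processing, such as Npat and Slbp, had 4 values at 15 of the 18 found, with medians of 3.94, 5.97, 5.74 and 3.84. All 8 listed histone chaperones, such as Asf1a and Nasp, had 4 values, with medians of 4.05, 5.04, 6.35 and 3.84. None of these genes passed the limma test between origins for H3K4me3, H3K36me3 or methylation.

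The 32 other genes inside the cluster spans, among them the sodium phosphate transporter Slc17a1 and the iron regulator Hfe, had H3K4me3 in all 4 lines at 11 genes (34.4%). Of them 31 had methylation in all 4, with medians of 0.313 (PTC11), 0.419 (PTC12), 0.246 (TTF1) and 0.689 (TTF4). 2 passed the limma test for H3K4me3, and these were Gm20632 and Gm20633, which share the values of Hist2h3c2 and Hist2h3c1. As a check of the cells, H3K4me3 was present in at least 1 line at 7 of 8 pluripotency markers, such as Pou5f1, at 1 of 5 proximal tubule markers, Lrp2, and at 5 of 6 fibroblast markers, such as Col1a1. All 4 lines had it at 6, 1 and 1 of them. The feeder layer is also fibroblast, and its part was not tested.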

How the data were processed

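Histone marks were measured by chromatin immunoprecipitation and CpG methylation by nanopore sequencing in the PTC and TTF iPSC lines. For the marks the table holds RPKM as deposited, 1 value for each gene in each library. In making it the authors used mm10, Bowtie2 2.1.0, MACS2 2.0.10 with input as the control, and bedtools 2.17.0 for reads in peaks, subtracted the input RPKM, and averaged peaks from 2 kb before to 3 kb after the TSS, or over the gene body for H3K36me3. Their methods drop peaks without a positive value, but the table lists genes at 0, which were kept here. The methylation fraction was deposited by the authors per gene, from alignment with minimap2 2.17-r941 and calls by Nanopolish. Neither table gives reads or coverage, so depth is unknown and no interval or floor was computed.

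The members, the gene lists and the tests were chosen with earlier results of these data known. Methylation rows were matched by position and strand. Genes with values in all 4 lines were compared between origins by limma 3.58.1 (R 4.3.3), with its empirical Bayes variance trended on the mean. The response was log2(RPKM + 1), or the fraction minus the mean of its line, and Benjamini-Hochberg adjustment ran over all such genes with a threshold of 0.05. The test was tried on simulated data with independent noise for each gene and planted differences. These data held no shift of a whole line, so the trial cannot tell how such shifts act on the calls. Sequences came from GRCm38 with GENCODE annotation and RefSeq promoters, read with Python 3.11.15 (numpy 2.4.6, pandas 2.3.3, numba 0.67.0, matplotlib 3.10.9).

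By rule the text names the highest and lowest gene of each histone type and assay among those with 4 values, the members of Hist2, Hist3 and Hist4, the testis-type genes, members lacking H3K4me3 in a line, those with an adjusted p under 0.05, up to 3 in each direction without overlap between origins, and those with a mean methylated fraction over 0.3. Hist1h4n, Hist1h2bb and Hist1h4h, Hist1h4f and Hist1h2be in the methylation comparison, the other genes with 4 H3K36me3 values, and the genes named for shared values, stem-loops or the TTF4 pattern were chosen after their values were seen. Alternatives varied the pseudocount, a filter on low values, scaling, centring, the variance trend, shared values, values of 0, the methylation limit, and each line left out.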

Additional observations from a re-analysis of the deposited data

How the results depend on the processing

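The number of histone genes called for H3K4me3 was 7, and it fell to 0 with only genes of a mean of at least 1 RPKM, to 0 under median scaling, to 0 under quantile normalization and to 0 without the variance trend, settings under which no gene of the genome was called either. Leaving out 1 line at a time gave 2 (without PTC11, 3.08% of the histone genes against 0.430% of all genes) to 14 (without TTF1, 21.5% against 0.788%) calls, and the single line left in an origin was assumed to vary like the others. For methylation the calls ran from 0 to 1 (Hist1h2al, without TTF1), which is 1.47% of the histone genes against 2.01% of all genes. Genes whose lines did not overlap between origins numbered 14 in place of 8 for H3K4me3 under median scaling, which is 21.5% against 26.7% of all genes, where it had been 12.3% against 8.21%. Under quantile normalization they numbered 12 for H3K4me3 (18.5% against 28.5% of all genes). For H3K36me3 they numbered 3 under median scaling (33.3% against 28.2% of all genes) and 5 under quantile normalization (55.6% against 30.1%) in place of 0. For methylation they numbered 27 without centring (39.7% against 23.9% of all genes), 3 under median centring (4.41% against 25.7%) and 24 under quantile normalization (35.3% against 33.6%) in place of 8 (11.8% against 27.8%). With a limit of 0.2 in place of 0.1 the share of histone genes below it was 90.0% in PTC12, 92.9% in TTF1 and 81.4% in TTF4. Apart from the settings named for genes and scaling, the cause was not tested. No paired analysis was possible because the line numbers are not shared between the origins. The tables give no depth, and 2 lines per origin limit what can be detected.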
